A study of Rattus norvegicus with 15 samples.

Results

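C3, Lbp, A2m, Cp and Hp code for plasma proteins of the complement system and the acute phase response, and their transcripts were followed in mesenteric arteries of the rat, which feed the intestine. All probe sets whose platform gene symbol is one of these 5 genes were taken, which gave 5 of the 4736 genes named by a probe set with 1 symbol and 13 of the 8740 probe sets that are not array controls: 6 for A2m, 3 for Cp, 2 for C3, and 1 each for Lbp and Hp. Of the 13, 10 passed the filter on low signal (at or above the array's own 40th percentile on at least 3 arrays) and were tested in one fit over all 6512 probe sets that passed. The 3 that did not pass are described by their values alone.

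Acute phase proteins are secreted into the blood, mainly by hepatocytes, when interleukin 6, interleukin 1 and related cytokines signal inflammation through STAT3, C/EBP and NF-κB transcription factors. C3 is the central protein of complement, whose cleavage tags surfaces for uptake and drives the rest of the cascade. Lbp binds bacterial lipopolysaccharide and hands it to Cd14 and Tlr4, A2m traps proteases, Cp carries copper and oxidises iron, and Hp binds free haemoglobin. In rat, A2m is one of the acute phase proteins of the liver. Fat cells and macrophages, which lie in and around the artery wall, also make several of these proteins.

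One strain was the spontaneously hypertensive rat (SHR), which is inbred and becomes hypertensive with age, and the other was the normotensive Wistar Kyoto rat (WKY). SHR collateral arteries (4 arrays) and WKY collateral arteries (4 arrays) carry added flow once neighbouring arteries have been closed off, and SHR control arteries (4 arrays) and WKY control arteries (3 arrays) were their references. The study addressed what might underlie the poor growth of collaterals in SHR. Age, sex and time after occlusion are not in the labels. Nor do they tie each array to an animal of its own, so a p-value reflects the spread among these samples alone, which may be technical.

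Values are MAS5 signals, a brightness per probe set scaled to the same trimmed mean on every array. The number of arrays limits the precision, with a median standard error over all tested probe sets of 0.50 on the log2 scale for the SHR vessel comparison and 0.54 for the WKY one. The array SHR collateral 3 stood apart. Its Spearman correlation with the other 14 arrays lay between 0.496 and 0.657, while those correlated with each other between 0.805 and 0.931, and 171 was the 20th percentile of its signals, compared with 43.4 to 83.3 elsewhere. Member differences that rest on it are given with and without it. Smooth muscle markers, which define the labelled tissue, were present in all groups, and all 6 on the array passed the filter.

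For Cp and C3 a promoter sequence was available, from 250 bases before to 50 bases after the annotated start in RefSeq (build GRCr8), matched by gene identifier. They are shown because Cp had the smallest adjusted p of the 5 genes, and because C/EBP, STAT and NF-κB sites are the usual control elements of acute phase genes. Capitals mark each match to the C/EBP motif TTNNGNAA. Cp lies on the plus strand at chr2:104368420-104368719 and C3 on the minus strand at chr9:2201290-2201589, and both are written 5′ to 3′ on the gene's strand.
Cp: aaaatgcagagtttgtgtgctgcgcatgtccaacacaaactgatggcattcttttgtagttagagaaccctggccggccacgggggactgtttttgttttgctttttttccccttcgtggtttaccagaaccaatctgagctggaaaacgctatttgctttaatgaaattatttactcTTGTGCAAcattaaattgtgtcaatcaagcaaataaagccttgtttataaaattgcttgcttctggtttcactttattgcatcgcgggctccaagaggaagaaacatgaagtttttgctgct
C3: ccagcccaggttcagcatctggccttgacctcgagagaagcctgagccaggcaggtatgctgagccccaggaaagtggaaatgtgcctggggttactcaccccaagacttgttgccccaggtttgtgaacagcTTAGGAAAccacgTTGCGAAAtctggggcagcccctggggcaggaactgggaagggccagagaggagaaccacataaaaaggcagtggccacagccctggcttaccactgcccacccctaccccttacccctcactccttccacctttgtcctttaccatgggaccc
The Cp window held 1 match, TTGTGCAA, at bases -72 to -65 from the start, and the C3 window held 2, TTAGGAAA at -117 to -110 and TTGCGAAA at -104 to -97. Both strands were searched for TTNNGNAA, for the STAT motif TTCNNNGAA and for the NF-κB consensus. A match to TTNNGNAA was found in 41.3% of 33469 rat promoters of 300 bases, one to the STAT motif in 8.9% and one to the NF-κB consensus in 4.2%. Neither of the last 2 letter patterns occurred in the Cp or C3 window, and the matches found did not overlap.

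None of the 10 tested member probe sets passed an adjusted p of 0.05 in any of the 7 comparisons (limma with Benjamini-Hochberg adjustment over 6512 probe sets). For SHR collateral against SHR control arteries the share of all tested probe sets that passed was 0%, and it was also 0% for WKY collateral against WKY control, for the difference of those changes, for their mean, and for SHR against WKY collateral arteries. It was 0.0307% for SHR against WKY control arteries and 0.891% for the mean strain difference over both vessel types. At an unadjusted p under 0.05 there were 3 member probe sets in SHR collateral against SHR control arteries, where 3.76% of all tested probe sets reached that level: 2 of A2m higher and Lbp lower in collaterals. The median log2 difference of the 10 member probe sets there was -0.02, beside 0.06 for all tested probe sets. It was -0.12 beside 0.00 in WKY collateral against control arteries and 0.01 beside 0.07 for the mean strain difference.

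In SHR, the A2m probe set M23566exon_s_at was brighter on every collateral array than on any control array. Its signal was 787, 1548, 2540 and 740 on SHR collateral arrays 1 to 4, against 519, 308, 384 and 506 on SHR control arrays 1 to 4. In WKY it was 813, 744, 883 and 294 on collateral arrays, against 479, 494 and 1480 on control arrays. The SHR groups did not overlap, while the WKY groups did. Lack of overlap was found in 1.72% of all tested probe sets in this SHR comparison and in 1 of the 10 tested member probe sets.

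The log2 difference of M23566exon_s_at in SHR, collateral minus control, was 1.55 ± 0.48 (SE), or 2.93-fold, with a 95% interval of 0.55 to 2.55 and an adjusted p of 0.9491 (limma). Its unadjusted p was 0.00434. Without SHR collateral 3 the difference was 1.20 ± 0.46, and over all 15 fits that left out an array it lay between 1.20 and 1.80. In WKY the difference was -0.16 ± 0.51 (adjusted p = 0.9999, limma). The SHR change minus the WKY change was 1.71 ± 0.70, with an unadjusted p of 0.0249 and an adjusted p of 0.9997 in limma. Without SHR collateral 3 it was 1.37 with an unadjusted p of 0.0525, and that p was 0.0614 without WKY collateral 4 and 0.109 without WKY control 3. In this comparison of changes 1 member probe set reached an unadjusted p under 0.05, against 1.9% of all tested probe sets.

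A second A2m probe set, M22670cds_g_at, gave 320, 606, 1524 and 326 on SHR collateral arrays, against 110, 105, 325 and 404 on SHR control arrays. Its signal was 332, 347, 417 and 504 on WKY collateral arrays, against 313, 606 and 296 on WKY control arrays. SHR control arrays 1 and 2 were the dimmest of the 15, and SHR control arrays 3 and 4 lay within the range of the collaterals. The SHR difference was 1.50 ± 0.55 (adjusted p = 0.9491, limma), and it was 1.02 ± 0.51 without SHR collateral 3. The unadjusted p was 0.014 over all arrays, and 0.0644, 0.0516 and 0.0543 without SHR collateral 3, SHR control 1 and SHR control 2. In WKY the difference was 0.04 ± 0.60.

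The other A2m probe sets gave smaller SHR differences. X13983mRNA_at gave 2560, 3405, 7140 and 1307 on SHR collateral arrays, against 1772, 1853, 1993 and 2393 on SHR control arrays, so that the groups overlapped. Its SHR difference was 0.59 ± 0.40, and 0.18 ± 0.34 without SHR collateral 3, the array with the signal of 7140. For rc_AA900582_at the signal was between 461 and 1421 on SHR collateral arrays and between 979 and 1109 on SHR control arrays. Its SHR difference was -0.27 ± 0.34, and 0.03 ± 0.30 without SHR collateral 3, which was its dimmest array. The A2m probe sets therefore disagreed, with SHR differences between -0.27 and 1.55 over the 5 tested, 4 of them above 0.

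The last 2 A2m probe sets were dim. The signal of rc_AI113046_at lay between 10 and 221 over all arrays and below the array's 20th percentile on 9 of 15, with an SHR difference of 0.50 ± 1.09 (0.66 ± 1.16 without SHR collateral 3). M22670cds_at, not tested, lay below that percentile on 13 of 15 arrays. It read 129, 37, 367 and 10 on SHR collateral arrays, against 13, 15, 15 and 44 on SHR control arrays. Rat A2m belongs to a family with close relatives, among them the alpha-1-inhibitors, and probes could read more than 1 of them. Over the 14 arrays other than SHR collateral 3 the log2 signals of X13983mRNA_at had a Pearson correlation of 0.72 with rc_AA900582_at, 0.54 with M23566exon_s_at and 0.37 with M22670cds_g_at. Over all 15 arrays those values were -0.16, 0.73 and 0.65, so that this array turned the sign of one and raised the others. M23566exon_s_at and M22670cds_g_at had one of 0.31 over 14 arrays and 0.56 over 15. These are descriptions over arrays that share strain and vessel type.

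**Figure D1:**
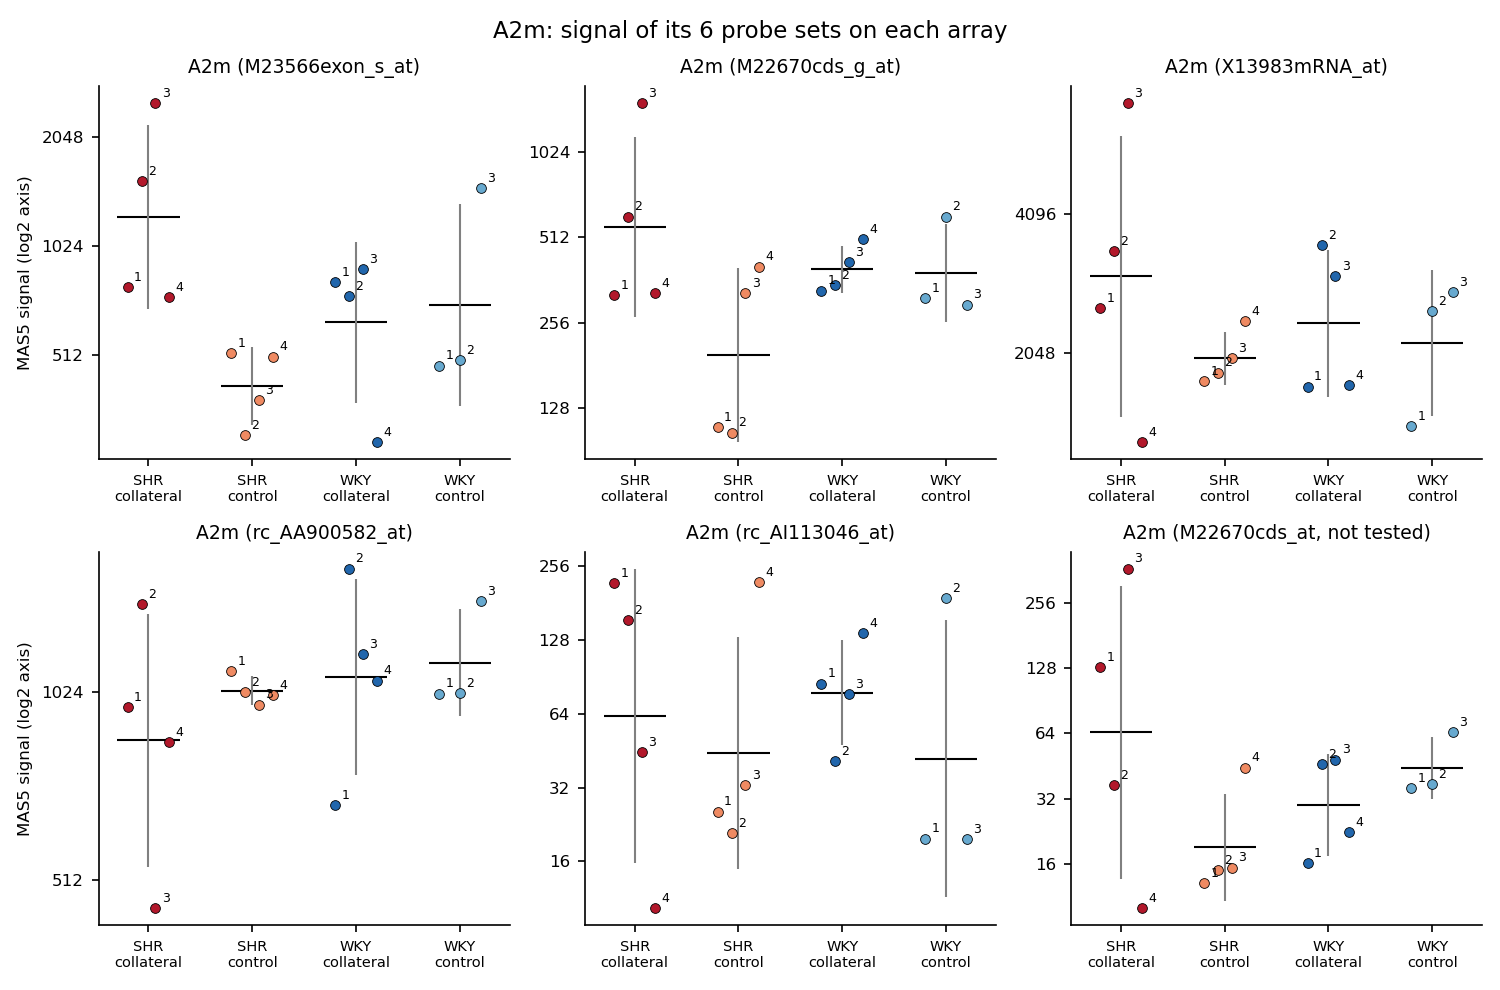
MAS5 signal (log2 axis) of the 6 A2m probe sets on each of the 15 arrays, by group; numbers are replicates, black lines the mean of log2 signal and grey bars ± 1 SD. M23566exon_s_at is brighter on all 4 SHR collateral arrays (740 to 2540) than on the SHR control arrays (308 to 519), and the other probe sets overlap.

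The order of the A2m groups also differed by probe set. The mean log2 signal of M23566exon_s_at was 10.26 ± 0.85 in SHR collateral (SD, n = 4), 8.71 ± 0.36 in SHR control (n = 4), 9.30 ± 0.74 in WKY collateral (n = 4) and 9.46 ± 0.93 in WKY control arteries (n = 3). SHR collaterals were highest and SHR controls lowest, and the WKY groups lay between them and differed from each other by less than their spread. For X13983mRNA_at the means were 11.55 ± 1.01, 10.96 ± 0.19, 11.21 ± 0.53 and 11.07 ± 0.52 in the same groups, and no neighbours differed beyond their spread. Between the strains, A2m differences in control arteries ranged from -0.96 to 0.08, SHR minus WKY, over the 5 tested probe sets. In collateral arteries they ranged from -0.34 to 0.97, and from -0.15 to 0.62 without SHR collateral 3.

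Lbp, the lipopolysaccharide binding protein, was dimmer in most SHR collaterals. Its signal was 852, 194, 269 and 471 on SHR collateral arrays, against 648, 1191, 798 and 945 on SHR control arrays. In WKY it was 584, 384, 620 and 381 on collateral arrays, against 655, 432 and 559 on control arrays. SHR collateral 1 lay within the range of the SHR controls and the other 3 lay below it, while the WKY groups overlapped throughout. The log2 difference in SHR was -1.20 ± 0.42 (SE; adjusted p = 0.9491, limma), with a 95% interval of -2.08 to -0.32. It was -1.03 ± 0.43 without SHR collateral 3 and ranged from -1.59 to -0.88 over the fits that left out an array. With array weights, which gave SHR collateral 1 the largest weight (2.78) and SHR collateral 3 the smallest (0.16), it was -0.61.

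In WKY the Lbp difference was -0.17 ± 0.45, and the SHR change minus the WKY change was -1.03 ± 0.62 (unadjusted p = 0.114, limma), so a difference between the strains was not detectable. Without SHR collateral 3 that value was -0.86 ± 0.60. The mean collateral change over both strains was -0.69 ± 0.31 with an unadjusted p of 0.0397 and an adjusted p of 0.954 (limma), and it was -0.60 with an unadjusted p of 0.0622 without SHR collateral 3. Leaving out SHR control 2 or 4, SHR collateral 2, WKY control 1 or 3, or WKY collateral 2 or 4 also took the unadjusted p past 0.05, to 0.0902 at most. Lbp was the only member under 0.05 unadjusted in that comparison, where 5.11% of all tested probe sets were. The mean log2 signal was 8.57 ± 0.94 in SHR collateral, 9.77 ± 0.37 in SHR control, 8.91 ± 0.38 in WKY collateral and 9.08 ± 0.30 in WKY control arteries (SD). SHR controls were the brightest group, and the other 3 did not differ beyond their spread.

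Adipocyte markers varied widely within the groups. The summed signal of the 10 markers on the array (of 11 listed) was between 10588 and 56496 on SHR collateral arrays and between 9598 and 90227 on SHR control arrays. In WKY it was between 7215 and 22615 on collateral and between 11789 and 42277 on control arrays. All 7 tested adipocyte markers had a log2 difference below 0 in collaterals of each strain, with 0 past the threshold and 0 at an unadjusted p under 0.05, and Plin1 and Cd36 were below the 20th percentile on most arrays. In such bulk tissue, fewer cells of a type and less RNA per cell cannot be told apart. Fibroblast markers, 10 of 10 tested, were also below 0 in all 10 in SHR collaterals, 4 of them at an unadjusted p under 0.05. The part of these cells in the Lbp values was not tested.

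Cp, ceruloplasmin, read brighter on every SHR control array than on any WKY control array by its probe set L33869_at. In SHR its signal was 2108, 1367, 1943 and 1447 on collateral arrays, against 2616, 1863, 2116 and 2156 on control arrays. In WKY it was 1294, 1303, 1050 and 1630 on collateral arrays, against 1295, 1535 and 1262 on control arrays. All 4 SHR control arrays lay above all 3 WKY control arrays, while the collateral arrays of the strains overlapped. Lack of overlap was found in 8.57% of all tested probe sets between the control groups, and in this 1 of the 10 tested member probe sets. Between the collateral groups it was found in 3.62% of all tested probe sets and in 0 of the members.

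The log2 difference of L33869_at, SHR minus WKY, was 0.68 ± 0.27 in control arteries (1.60-fold; adjusted p = 0.6499, limma) and 0.37 ± 0.25 in collateral arteries (adjusted p = 0.709, limma), or 0.30 ± 0.24 without SHR collateral 3. Averaged over both vessel types it was 0.52 ± 0.18, or 1.44-fold, with a 95% interval of 0.14 to 0.91. The unadjusted p of that mean was 0.00959 and the adjusted p 0.2285 in limma, the smallest among the members in any comparison. It was the only member probe set under 0.05 unadjusted there, where 11.9% of all tested probe sets were. In control arteries it was again the only one, against 6.46% of all, and between collateral arteries there were 0, against 7.62% of all. Leaving out any 1 array kept the mean between 0.47 and 0.58. The difference in control arteries lay between 0.59 and 0.76, with an unadjusted p of 0.0591, 0.0544 and 0.0611 without SHR control 1, WKY control 1 and WKY control 3.

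**Figure D2:**
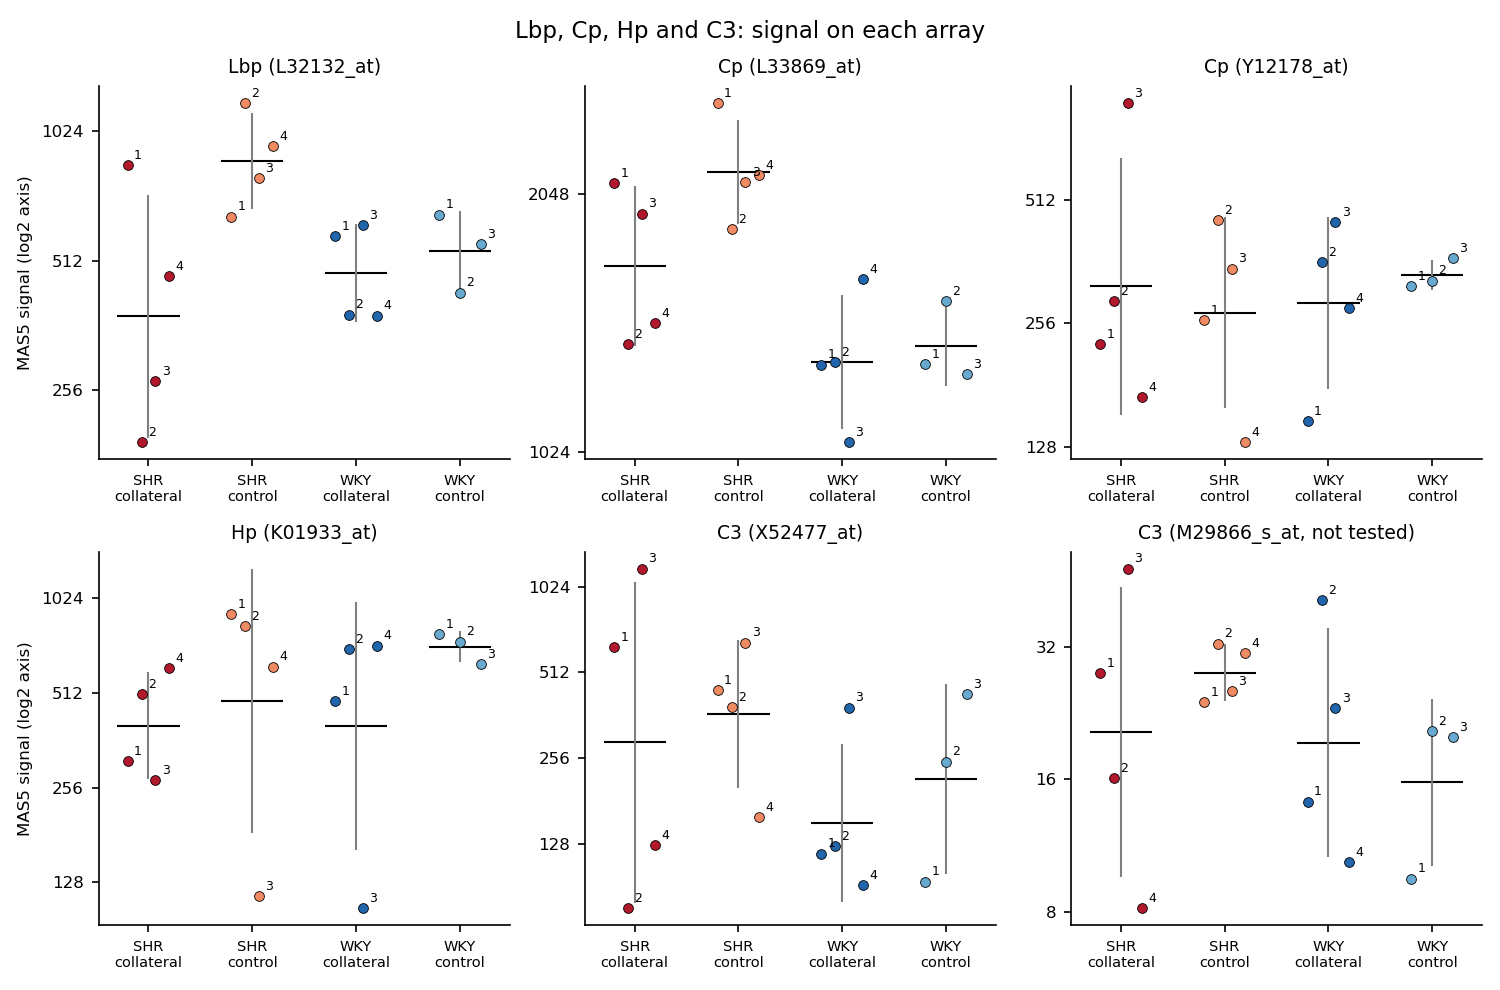
MAS5 signal (log2 axis) of Lbp, 2 Cp probe sets, Hp and both C3 probe sets on each array, by group; numbers are replicates, black lines the mean of log2 signal and grey bars ± 1 SD. Cp L33869_at is brighter on the 4 SHR control arrays (1863 to 2616) than on the 3 WKY control arrays (1262 to 1535), Lbp is dimmer on 3 of 4 SHR collateral arrays than on the SHR controls, and Hp has single dim arrays (116 in SHR control, 106 in WKY collateral).

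Scaling mattered for the size of the Cp difference. With equal array medians the mean strain difference was 0.39, with an unadjusted p of 0.088, and the median of all tested probe sets stood at -0.07 in that setting against 0.07 with the deposited scaling. The mean log2 signal was 10.72 ± 0.31 in SHR collateral (SD, n = 4), 11.08 ± 0.20 in SHR control (n = 4), 10.35 ± 0.26 in WKY collateral (n = 4) and 10.41 ± 0.15 in WKY control arteries (n = 3). Both SHR groups stood above both WKY groups by their means, and groups next to each other in that order overlapped. Collateral against control arteries differed by -0.36 ± 0.25 in SHR (-0.43 ± 0.24 without SHR collateral 3) and -0.06 ± 0.27 in WKY.

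The second Cp probe set did not show the strain difference. Y12178_at gave 228, 290, 881 and 169 on SHR collateral arrays, against 261, 456, 348 and 131 on SHR control arrays, and 148, 360, 452 and 279 on WKY collateral arrays, against 316, 325 and 369 on WKY control arrays. Its mean strain difference was -0.08 ± 0.40, and -0.33 ± 0.35 without SHR collateral 3, its brightest array. Over 14 arrays the log2 signals of the 2 tested Cp probe sets had a Pearson correlation of -0.26. The third, rc_AA817854_s_at, was not tested. It lay between 40 and 259 and below the array's 20th percentile on 8 of 15 arrays, with its highest readings, 214 and 259, on SHR control arrays 3 and 4.

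Markers of other cell types were set beside the Cp strain values. The summed signal of 6 mast cell markers (of 7 listed) was between 1961 and 4929 on SHR collateral and between 2068 and 5206 on SHR control arrays. On WKY arrays it was between 943 and 1754 for collaterals and between 1181 and 1729 for controls, so that the strains did not overlap. Of 3 tested mast cell markers 1 passed in the mean strain difference, the chymase gene Cma1, at 1.19 ± 0.27 (adjusted p = 0.03758, limma), a call that was lost in 10 of 15 fits that left out an array. It held without SHR control 2 or 4, or without SHR collateral 2, 3 or 4, and was also lost with quantile normalization, equal array medians, no variance trend and no moderated variance (adjusted p up to 0.134). Cma1 was also the brightest of these markers, at 611 to 3824 over all arrays, and the next, Tpsab1, reached 1174, so the sum leans on Cma1. Mcpt1 was below the 20th percentile on 9 arrays, Ms4a2 on 7, and Cpa3 and Fcer1a on 3 each. The summed signal of 7 macrophage markers (of 10 listed) was between 16934 and 31134 on SHR collateral and 4979 and 45006 on SHR control arrays. On WKY arrays it was 3641 to 19457 for collaterals and 2490 to 5771 for controls, so that these sums overlapped between the strains. Lyz2, at 1103 to 34765, was the brightest of these markers and C1qb, at up to 3828, the next, so the sum leans on Lyz2. Of 6 tested macrophage markers 2 passed in the mean strain difference, Cd74 and C1qb, both higher in SHR. All 6 were above 0 there, with a median of 1.46 (0.04 for all genes tested). An unadjusted p under 0.05 (limma) was reached by 5 of them, against 11.9% of all tested probe sets.

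Smooth muscle markers stood lower in SHR by estimate. Averaged over vessel types 0 of 6 tested were above 0, with a median of -0.59 (0.04 for all genes tested), and 0 passed while 2 were under 0.05 unadjusted. Between collateral arteries the median of these markers was -0.76 (0.07 for all genes tested). Both medians include SHR collateral 3. Their summed signal was between 71921 and 300186 on SHR collateral and 126589 and 257075 on SHR control arrays, against 184711 to 283876 on WKY collateral and 177001 to 278326 on WKY control arrays. The lowest sum was on SHR collateral 3, and SHR collateral 1, 2 and 4 had 168963, 300186 and 182092. The part of these cell types in the Cp, C1qb and Nfkb1 values was not tested.

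Hp, haptoglobin, passed in no comparison. Its signal was 311, 508, 271 and 614 on SHR collateral arrays, against 911, 833, 116 and 620 on SHR control arrays. In WKY it was 483, 706, 106 and 724 on collateral arrays, against 786, 745 and 632 on control arrays. A single dim array, SHR control 3 and WKY collateral 3, stood in each of 2 groups. The difference, collateral minus control, was -0.26 ± 0.64 in SHR, with a 95% interval of -1.61 to 1.09, and -0.84 ± 0.69 in WKY, with an interval of -2.29 to 0.62. Single arrays moved these values. The SHR difference was -0.95 without SHR control 3, and -0.07 ± 0.69 without SHR collateral 3, and the WKY difference was -0.19 without WKY collateral 3. In WKY collateral against control arteries 0 of the member probe sets reached an unadjusted p under 0.05, against 3.16% of all tested probe sets, and 0 showed no overlap, against 6.7% of all. Between the strains Hp differed by -0.57 ± 0.69 in control arteries and by 0.00 ± 0.64 in collateral arteries, SHR minus WKY. Without SHR control 3 the value in control arteries was 0.11, on the other side of 0. In collateral arteries it was 0.19 without SHR collateral 3 and -0.64 without WKY collateral 3.

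Of the C3 probe sets 1 passed the filter. X52477_at gave 627, 76, 1184 and 127 on SHR collateral arrays, against 444, 386, 652 and 159 on SHR control arrays. In WKY it gave 119, 126, 385 and 92 on collateral arrays, against 95, 249 and 430 on control arrays. The reading of 76 on SHR collateral 2 was below that array's own 20th percentile, and all groups overlapped. The log2 difference was -0.33 ± 0.79 in SHR (-1.0 ± 0.75 without SHR collateral 3) and -0.51 ± 0.85 in WKY. In SHR it was 0.32 without SHR collateral 2, on the other side of 0, and in WKY it was -0.02 without WKY control 3, so that single arrays decided both. SHR minus WKY, averaged over vessel types, it was 0.85 ± 0.58, with a 95% interval of -0.37 to 2.07, and 0.51 ± 0.53 without SHR collateral 3. The 95% interval was -1.98 to 1.33 in SHR and -2.30 to 1.27 in WKY, and both hold 0. The other C3 probe set, M29866_s_at, lay between 8 and 48, below the 20th percentile on 15 of 15 arrays.

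**Figure D3:**
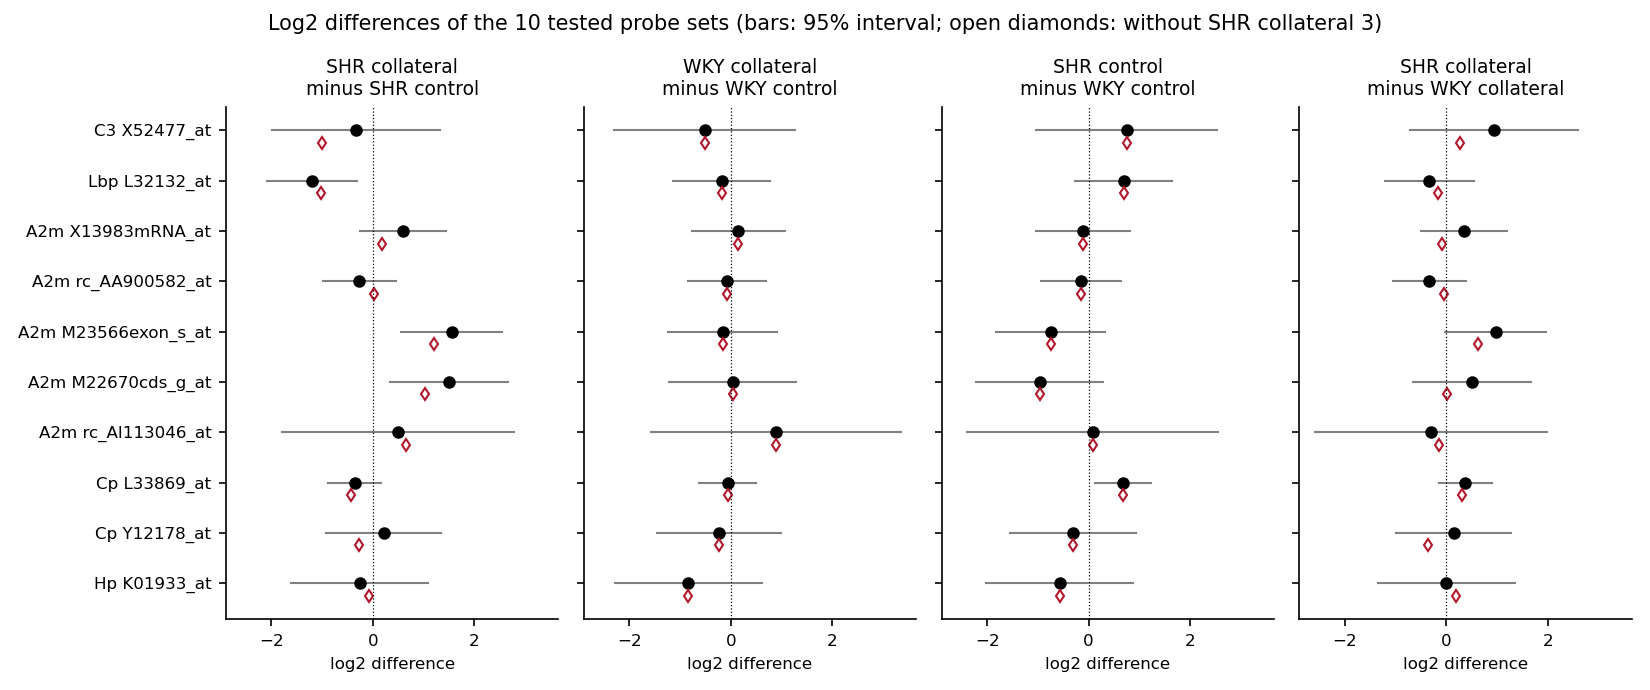
Log2 differences of the 10 tested probe sets in the 4 comparisons of single groups; points are estimates from limma, bars their 95% intervals and open diamonds the estimate without SHR collateral 3. The intervals of A2m M23566exon_s_at (0.55 to 2.55), A2m M22670cds_g_at and Lbp (-2.08 to -0.32) in SHR vessels and of Cp L33869_at between control arteries (0.12 to 1.24) leave out 0.

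No pair of the 5 genes passed a test of varying together over all arrays. After the group means were removed, 10 pairs of members were correlated over the 15 arrays, with the brightest probe set of each gene and a two-sided permutation test within groups. The Pearson correlation was between -0.59 and 0.55 (between -0.60 and 0.50 without SHR collateral 3, where C3 and A2m had 0.28 in place of 0.55), and 0 of 10 pairs had an adjusted p under 0.05. The smallest belonged to C3 and Hp, with a Pearson r of -0.59 (permutation p = 0.00743, adjusted p = 0.0743) and a Spearman rho of -0.59 (permutation p = 0.0294, adjusted p = 0.294). It was -0.64 without the 2 arrays farthest from the C3 median. Lbp and Cp had an r of -0.01 (permutation p = 0.976) and a rho of -0.31 (permutation p = 0.343). Without the 2 arrays farthest from the Lbp median r was -0.87 (permutation p = 0.00234, adjusted p = 0.0234), so this pair's value rests on which arrays are kept.

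Genes most like each member were taken by Pearson correlation of log2 signal over the 14 arrays other than SHR collateral 3, among 3820 genes. For Cp they were Cma1 at 0.84, the proteasome assembly gene Pomp at 0.84 and Nol3 at 0.82, with 0.84, 0.31 and 0.76 over 15 arrays. For Lbp they were the peroxisomal gene Pex11a at 0.80, the adaptor gene Ap3m2 at 0.78 and the translation factor Eif2b5 at 0.78, with 0.47, 0.69 and 0.75 over 15 arrays. For A2m (X13983mRNA_at) they were Tmem255b at 0.93, Ppp1r13l at 0.90 and the erythropoietin receptor Epor at 0.90, with 0.95, 0.94 and 0.93 over 15 arrays. For C3 they were Stard8 at 0.85, Cd24 at 0.82 and the VEGF receptor gene Kdr at 0.80. Over 15 arrays these had 0.88, 0.84 and 0.82. For Hp they were Map3k3 at 0.88, Fam32a at 0.87 and Gfer at 0.82, with 0.61, 0.88 and 0.82 over 15 arrays. None of the 5 members was among the genes compared, and the arrays share strain and vessel type.

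Among the other complement components, C1qb, a chain of the C1q molecule that starts the classical pathway, was higher in SHR. Its signal was 1543, 533, 1880 and 1520 on SHR collateral and 3136, 1778, 3828 and 606 on SHR control arrays, against 791, 251, 134 and 151 on WKY collateral and 518, 776 and 209 on WKY control arrays. Only SHR collateral 2 and SHR control 4 lay within the WKY range. Averaged over vessel types the log2 difference was 2.21 ± 0.47 (adjusted p = 0.02688, limma). C1qc, another chain of C1q, did not show such a difference. Its mean log2 signal was 9.97 ± 1.07 in SHR collateral and 9.79 ± 0.15 in SHR control arteries (SD). In WKY it was 9.79 ± 0.58 in collateral and 9.82 ± 0.74 in control arteries. Macrophages are a main source of C1q, C1qb is also in the macrophage list, and the macrophage sums and marker counts are given above. Their part was not tested. The C1qb call was lost without SHR control 1 or 3, SHR collateral 1, WKY control 1 or 3, or WKY collateral 2, 3 or 4, with an adjusted p up to 0.0972. It was also lost with quantile normalization, equal array medians, no variance trend and no moderated variance, with an adjusted p up to 0.155.

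Of the 10 complement component genes tested (of 22 listed), C1qb was the 1 that passed. Their median mean strain difference was 0.04, the same as the 0.04 of all 3825 genes. The C1 proteases differed in their values. Between strains C1r stood at -0.70 ± 0.26 (adjusted p = 0.2628, limma) and C1s at 0.01 ± 0.29 (adjusted p = 0.996, limma). Both values include SHR collateral 3. For the mean collateral change C1r stood at -0.52 ± 0.26 (adjusted p = 0.9898, limma), or -0.31 ± 0.19 without SHR collateral 3, and C1s at -0.75 ± 0.29 (adjusted p = 0.8728, limma). Masp1, a protease of the lectin pathway, stood at 1.60 ± 0.61 in SHR against WKY collaterals (adjusted p = 0.5576, limma), and at 1.28 ± 0.63 without SHR collateral 3. In WKY collaterals the median of the list was -0.50 with 2 of 10 genes above 0, beside -0.00 for all genes, and 0 passed or reached an unadjusted p under 0.05. Of the 7 complement regulators and receptors tested (of 16 listed) 0 passed, and Clu, clusterin, which restrains the terminal pathway, had the smallest p at -0.70 ± 0.23 between the strains (adjusted p = 0.1996, limma).

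Of 19 other acute phase plasma protein genes tested (of 33 listed), 0 passed in any comparison. Averaged over vessel types, with SHR collateral 3 included, 14 of 19 were above 0 in SHR against WKY. The median of the 19 was 0.39 beside 0.04 for all genes. Serpina3n, a protease inhibitor, stood at 1.21 ± 0.44 (adjusted p = 0.2448, limma), with 7179, 2214, 7971 and 6390 in SHR collateral and 16516, 4335, 12332 and 1660 in SHR control arteries, against 3235, 3092, 1550 and 1400 in WKY collateral and 4074, 3724 and 1534 in WKY control arteries. The retinol carrier Rbp4 stood at 1.04 ± 0.30 (adjusted p = 0.1208, limma). Both were brightest on SHR control 1, the array with the highest adipocyte sum. The part of fat cells in these values was not tested. The fibrinogen chain Fga stood at 1.71 ± 0.72 in SHR collaterals against SHR controls (adjusted p = 0.9491, limma), with its highest signal, 1340, on SHR collateral 3, and at 1.14 ± 0.70 without that array.

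Of the 19 genes tested of the pathway that induces these proteins (of 23 listed), Nfkb1, an NF-κB subunit, was the 1 that passed. Its signal was 785, 516, 240 and 1218 on SHR collateral and 999, 881, 1184 and 934 on SHR control arrays, against 1728, 1622, 2015 and 1317 on WKY collateral and 2206, 1699 and 1926 on WKY control arrays. All 8 SHR arrays lay below all 7 WKY arrays. Lack of overlap between the strains was found in 8.57% of all tested probe sets for control and 3.62% for collateral arteries. Over both vessel types together that share was not counted. The mean strain difference of Nfkb1 was -1.23 ± 0.28 (adjusted p = 0.03758, limma), and -1.01 ± 0.20 without SHR collateral 3, its dimmest array. The call held in 3 of 15 fits that left out an array, those without SHR control 4, SHR collateral 3 or SHR collateral 4. It was lost in 4 of 10 other settings, the same as for C1qb, with an adjusted p up to 0.154. The inhibitor Nfkbia stood at -0.95 ± 0.34 (adjusted p = 0.2402, limma). Cebpb and Stat3 are factors that bind acute phase promoters. Averaged over the strains, the collateral change was -0.68 ± 0.22 for Cebpb (adjusted p = 0.8073, limma) and -0.75 ± 0.31 for Stat3 (adjusted p = 0.9233, limma). The Stat3 change lay mostly in WKY, with a mean log2 signal of 7.83 ± 0.79 in collateral and 9.10 ± 0.30 in control arteries (SD). In SHR those means were 8.41 ± 0.44 and 8.64 ± 0.21.

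Lbp delivers its ligand to Tlr4, which stood at 1.91 ± 0.58 in SHR against WKY control arteries (adjusted p = 0.4122, limma) and at 1.43 ± 0.58 in WKY collaterals against controls (adjusted p = 0.9999, limma). Its lowest signal, 25, was on WKY control 3. Of 3 tested genes of this list (of 8 listed) 0 passed. Of 3 tested genes of copper and iron handling (of 15 listed), Hmox1, which breaks down haem, was higher in SHR, with 3154, 1263, 2345 and 2267 on SHR collateral and 3943, 1425, 2940 and 1825 on SHR control arrays, against 1437, 348, 460 and 847 on WKY collateral and 548, 810 and 595 on WKY control arrays. Its mean strain difference was 1.78 ± 0.31 (adjusted p = 0.006431, limma). The call held in all 15 fits that left out an array and was lost with equal array medians (adjusted p = 0.0514) and with no moderated variance (adjusted p = 0.0687).

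**Figure D4:**
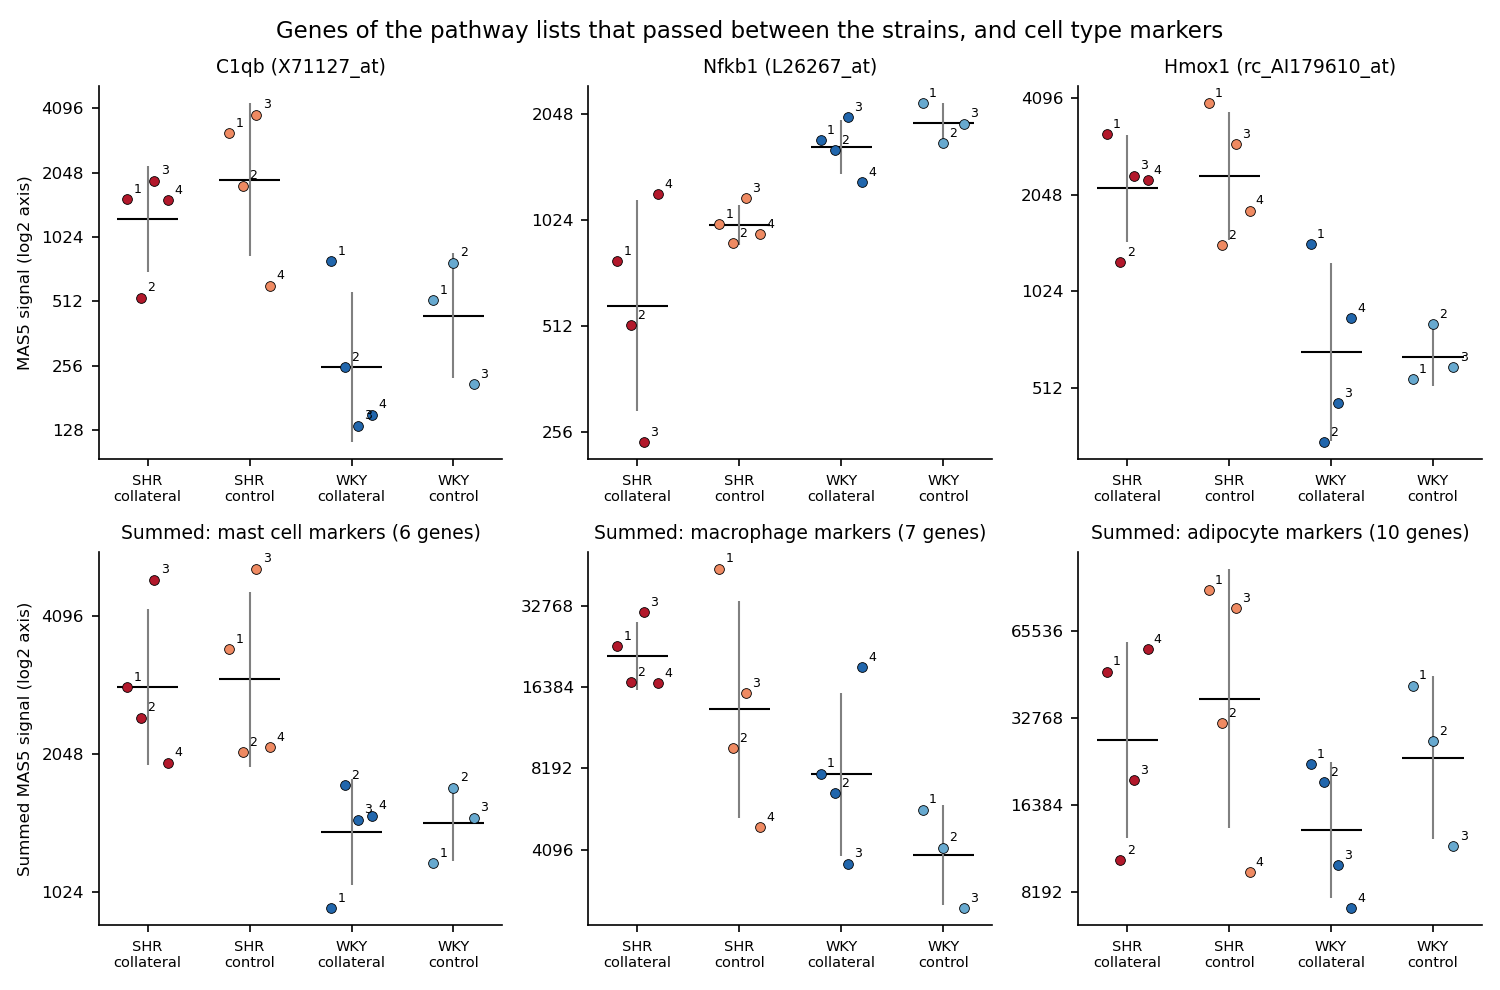
Upper row, MAS5 signal (log2 axis) of the 3 genes of the pathway lists that passed in the mean strain difference, and lower row, summed MAS5 signal (log2 axis) of mast cell, macrophage and adipocyte markers, on each array by group; black lines are means and grey bars ± 1 SD of log2 values. Nfkb1 is dimmer on all SHR arrays (240 to 1218) than on the WKY arrays (1317 to 2206). Mast cell sums, which lean on Cma1, separate the strains while adipocyte sums overlap.

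Hepatocytes are the main source of the 5 proteins in the body. Of 10 hepatocyte markers on the array 8 were tested and 0 passed in any comparison. Their summed signal was between 2625 and 11060 on SHR collateral and 3538 and 5771 on SHR control arrays, against 3197 to 6137 on WKY collateral and 3382 to 4241 on WKY control arrays. The highest sum was on SHR collateral 3. Tat, a liver enzyme, was below the 20th percentile on 11 of 15 arrays.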

How the data were processed

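Biotin-labelled cRNA was prepared from artery RNA, as the labels' protocols describe. What the authors deposited is a MAS5 signal for each probe set on each array, a scaled brightness made with GCOS according to the submitters' processing notes, and no version is given there. Sample titles gave the groups.

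Before log2 was taken, signals under 1 (12 values) were raised to that floor, and 59 of 8799 probe sets, array controls, were left out. Group means over all 15 arrays were fitted and tested with limma (version 3.58.1, R 4.3.3), with a variance trend, two-sided p-values and Benjamini-Hochberg adjustment at 0.05. The fit was tested on simulated data. Symbols came from the platform annotation, in which 7006 probe sets had 1 symbol, 308 several and 1426 none. Only those with 1 were named.

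The members and gene lists were chosen with earlier results of these data known. Named were all member probe sets, up to 4 genes per list with the smallest p in any comparison plus any that passed, and the 3 genes most like each member. A list gene was represented by its probe set with the highest mean signal. The text gives part of the list genes.

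Alternatives were other scalings, filters, variance models, array weights, the replicate number as a block and each array left out. The recomputing of called list genes under them was added after seeing the data. Sequences were RefSeq promoters of build GRCr8. No genome was used.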

Additional observations from a re-analysis of the deposited data

Results flagged for a closer look

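In WKY collateral arteries, array 4 stood far from the other 3 for A2m M23566exon_s_at, with a signal of 294. The nearest of the others was 744, and the gap was 0.845 of the group's range on the log2 scale. Of 30 groups of 4 arrays examined over the tested member probe sets this was the only one so marked, and chance marks about 1 in 20. The SHR change minus the WKY change of that probe set was 1.35 without this array, with an unadjusted p of 0.0614 in limma.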

How the results depend on the processing

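No member probe set passed the threshold under any alternative tried, so the number of members called was 0 in each comparison, with a range of 0 to 0 when single arrays were left out and 0 in both fits with a replicate block, fixed or random. The deviations of same-numbered arrays had correlations of 0.08, 0.06, 0.04 and -0.07 in SHR and 0.31, 0.02 and 0.17 in WKY. Differently numbered arrays had correlations of -0.09 to 0.10 in SHR and -0.27 to 0.11 in WKY. Not every same-numbered pair was above 0.1, so the numbers were not taken to pair the samples. The block fits used the number over both strains together, so they did not test pairing within a strain. Whether collateral and control arteries were paired is not settled here. The 7 member differences under an unadjusted p of 0.05 kept their direction in 165 of 165 settings, and 1646 alternative member values moved by less than the spread between replicates while 4 moved by more. Those were Cp L33869_at between collateral arteries with equal array medians (0.13) and Lbp with array weights (-0.61 in SHR, -0.42 for the difference of changes, 0.37 between collateral arteries). The number of member pairs with an adjusted correlation p under 0.05 was 1, against 0 over all arrays, without the 2 arrays farthest from the median. Equal array medians put the median of all probe sets at -0.12 in SHR collateral against control arteries, against 0.06 with the deposited scaling. For the mean strain difference all probe sets called numbered 58, 31 with equal array medians, 34 without a variance trend, 10 without moderated variance, 184 with array weights, 134 and 92 with the number as a fixed and a random block, and 30 to 101 with 1 array left out. Signal near background limits what the 3 untested member probe sets and A2m rc_AI113046_at can show.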

Other observations

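Further cell types in the artery wall were followed by their markers. The summed signal of 7 endothelial markers was between 1900 and 5589 on SHR collateral and 2307 and 3273 on SHR control arrays, against 2727 to 8914 on WKY collateral and 4939 to 6989 on WKY control arrays. All SHR control arrays lay below all WKY control arrays in this sum, while single markers were split, with 3 of 7 above 0 in SHR against WKY control arteries. Icam2 was the 1 that passed there, at -3.62 ± 0.61 (adjusted p = 0.04341, limma), and Pecam1 stood at 0.73 ± 0.44 (adjusted p = 0.8828, limma). The Icam2 call between control arteries was lost without SHR control 1 or 2, or without SHR collateral 2. It was also lost without WKY control 1, 2 or 3, or without WKY collateral 1, 2 or 3. With no filter, or a filter at the 60th percentile, no probe set passed in that comparison. Icam2 also passed in the mean strain difference, lower in SHR, and that call held in all 15 fits that left out an array. Its estimate lay between -3.01 and -2.50 in those fits. That call was lost in 1 of 10 other settings, the one with no moderated variance. Red cell markers reached 20082 on SHR control 1 and 20775 on WKY collateral 1, and lay between 1438 and 7019 on the other 13 arrays. Hp, whose protein binds haemoglobin, was 911 and 483 on those 2 arrays. Neutrophil markers, which include the iron-withholding protein gene Lcn2, ranged from 498 to 6895 on SHR collateral and 459 to 7246 on SHR control arrays, against 839 to 2006 on WKY collateral and 635 to 1484 on WKY control arrays.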
